A study of Mus musculus with 16 samples.

Results

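R-loop peaks were examined at the genes for the proteins of the cytosolic ribosome. The members were the protein_coding genes of GENCODE M21 (mouse GRCm38) whose symbol is Rpl or Rps followed by a digit, or is Rplp0, Rplp1, Rplp2 or Rpsa, without the S6 kinase genes and the pseudogenes. The rule found 86 of 21951 protein_coding genes. Of these, 46 encode proteins of the large subunit and 31 encode proteins of the small subunit. The other 9 are paralogs such as Rpl3l and Rpl22l1, or, for Rps19bp1, a gene for a protein that binds Rps19. A gene was counted as carrying a peak in a list when a peak overlapped its body or the 1000 bp on either side by at least 1 bp.

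The peaks came from DNA:RNA hybrid immunoprecipitation sequencing (DRIP-seq), in which the S9.6 antibody pulls down DNA:RNA hybrids and the DNA is sequenced. The cells were NIH/3T3 mouse embryonic fibroblasts, either wild type (WT) or with a CRISPR-Cas9 knockout (KO) of Xpo4, the gene of exportin 4, whose copies were both edited in the same way. Before precipitation the digested genomic DNA was incubated with RNase R, an exonuclease that removes linear RNA (RNase R+), or with buffer (RNase R-), and 2 replicates were made of each of the 4 combinations. The 8 precipitated libraries each had 1 peak list, and the 8 input libraries were not analysed here. Nothing in the labels says that replicates came from separate cultures, so the spread between them may be technical. No RNA level is part of these lists, so neither the loss of Xpo4 RNA, nor the identity of the cells, nor the transcription of the members was checked.

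An R-loop forms when RNA pairs with one DNA strand and displaces the other, most often at the gene being transcribed. Hybrids that withstand RNase R are read as containing circular RNA (ciR-loops), and those lost with it as containing linear RNA (liR-loops). Ribosomal protein genes are short, are among the most strongly transcribed genes of growing cells, and often hold small nucleolar RNAs (snoRNAs) in their introns. The levels of their products are tuned together, largely through a tract of pyrimidines at the 5′ end of their mRNAs (the TOP motif).

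The lists held 26219 and 32031 peaks in KO RNase R-, 6372 and 5996 in KO RNase R+, 3885 and 2171 in WT RNase R-, and 271 and 352 in WT RNase R+. The lists give no read totals. The background level that the peak caller used, recovered from each peak's fold and p, was between 0.843 and 0.924 reads in the KO lists and between 0.425 and 0.558 reads in the WT lists. The study's reporting summary lists far fewer uniquely mapped reads for the WT than for the KO RNase R- precipitates, and totals of similar size for the RNase R+ precipitates. No identical peak was shared by the replicates of any group.

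Ribosomal protein genes carried R-loop peaks in KO cells and, with 1 exception at a neighbouring gene, none in WT cells. Without RNase R, 51 of the 86 genes had a peak in KO replicate 1 and 51 in KO replicate 2, or 59.3% in each list. With RNase R, 32 genes (37.2%) had one in KO replicate 1 and 20 genes (23.3%) in KO replicate 2, a mean of 30.2% ± 9.87 (SD, n = 2). In WT cells 1 gene had a peak in each RNase R- list (1.16%). In each WT RNase R+ list 0 of 86 genes had one, which by counting error alone allows a share of up to 3.49%. The KO lists therefore did not overlap the WT lists in either treatment.

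The members' shares were set beside those of the 14380 other protein_coding genes between 374 and 31449 bp, the lengths of the shortest and longest member, weighted over 5 length classes to match the members. These length-standardized shares were 15.1% ± 1.70 (SD, n = 2) in KO RNase R-, 4.11% ± 0.488 in KO RNase R+, 1.06% ± 0.294 in WT RNase R- and 0.256% ± 0.00343 in WT RNase R+. The members' share was 3.91 times the standardized one in KO RNase R- and 7.36 times in KO RNase R+. In WT RNase R- the ratio was 1.09, which rests on 1 member in each list, with its peak at a neighbouring gene. The genes compared were matched for length and not for transcription, whose part in the difference was not tested.

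**Figure D1:**
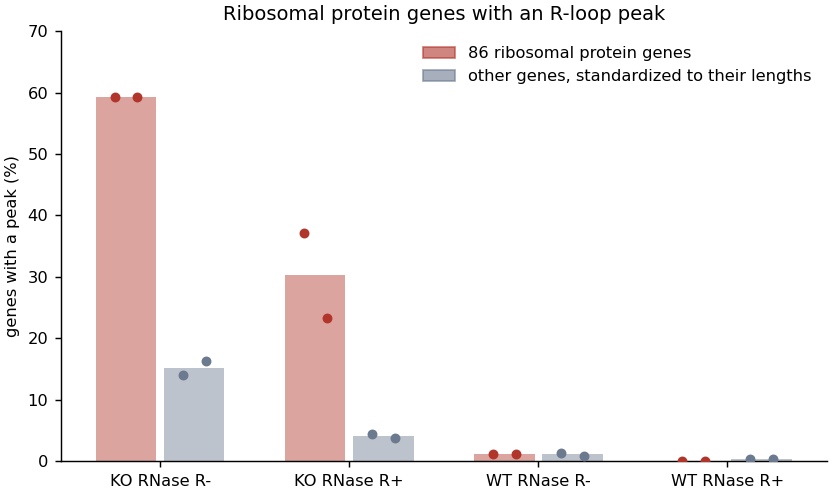
Percent of genes with at least 1 R-loop peak in each group of lists (horizontal axis) for the 86 ribosomal protein genes (red) and for other protein_coding genes standardized to their lengths (grey). Bars are means and points are the 2 replicate lists. The members stood at 59.3% in both KO RNase R- lists, against 13.9% and 16.3% for the other genes, and at 1.16% or 0% in the WT lists.

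A peak was present in both KO lists and in no WT list at 45 members without RNase R (52.3%) and at 20 members with RNase R (23.3%). The same call was made for 14.9% of other genes of similar length without RNase R and for 3.03% with it. Standardized to the members' lengths, those shares were 10.0% and 2.26%. No member had a peak in both WT lists and neither KO list. With 2 lists against 2, an exact permutation test of a single gene cannot give a two-sided p below 0.333. When genotypes were exchanged within each treatment, giving 36 arrangements, 19 members reached the smallest possible p of 0.0556, each with more peaks in KO, beside 2.61% of other genes of similar length. None passed after adjustment of the exact permutation p over the 21951 genes by Benjamini-Hochberg, where the smallest value was 1.

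The background level was lower in the WT lists of both treatments. The read totals were far lower in WT for RNase R-. For RNase R+ the total was somewhat lower in WT replicate 1 and higher in WT replicate 2 than in the same-numbered KO library. Each KO summit height was scaled down by the ratio of background levels, WT over KO with the same number, and a peak was kept only if it still reached the lowest significance in that WT list. On this scale 40 members were called without RNase R and 16 with it, beside 9.88% and 1.69% of other genes of similar length. When they were instead scaled by the read totals in the study's reporting summary, 28 and 19 members were called, beside 3.03% and 2.73% of the other genes. That the kept peaks at these 28 genes reached the lowest significance listed in WT follows from this filter.

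Both subunits were represented. Of the 46 large-subunit genes, 25 had a peak in both KO RNase R- lists, 7 in one of them, and 13 in none of the 8 lists. Of the 31 small-subunit genes, 20 had a peak in both KO RNase R- lists, 2 in one, and 9 in no list. With RNase R, 8 large-subunit and 12 small-subunit genes had a peak in both KO lists. Among the 9 paralogs and Rps19bp1, 7 had no peak in any list. The exceptions were Rpl3l, the muscle paralog of Rpl3, with folds of 9.53 and 10.97 in the KO RNase R- lists, and Rps19bp1, with a fold of 6.94 in KO RNase R- replicate 1 alone. In all, 57 members had a peak in some list and 29 in none. The longer members more often had one. Above the median member length, 29 of 38 ribosomal proteins' genes had a peak in both KO RNase R- lists. Below it, 16 of 39 did. Other genes were not split at that length, and the part of window length was not tested. Their mean KO RNase R- share was 22.8% as they stood and 15.1% when weighted to the members' lengths. None of the 4 members on the X chromosome (Rpl10, Rpl36a, Rpl39 and Rps4x, named after their values were seen) had a peak, beside 6.06% of the 644 other X-linked genes of similar length with a peak in both KO RNase R- lists.

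**Figure D2:**
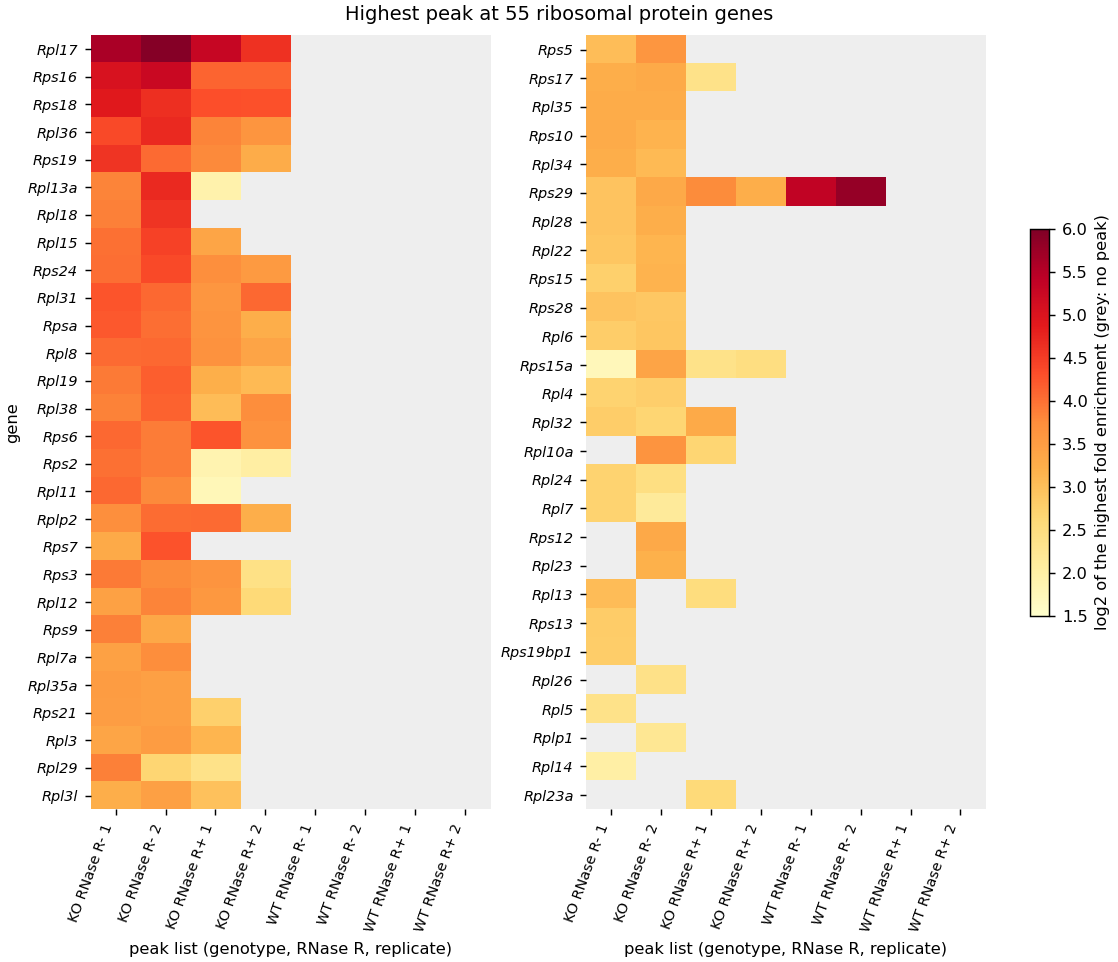
Highest fold enrichment of a peak (colour, log2 scale; grey where there was no peak) at 55 of the 57 ribosomal protein genes with a peak (rows, ordered by their summed KO RNase R- folds) in the 8 lists (columns). Colour fills the KO columns, is sparser with RNase R, and appears in the WT columns for Rps29 alone, at 41.2 and 55.7.

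Peak strength is given as the fold enrichment of the summit over the level the peak caller expected there, for the highest peak of a list in the gene's window, which was not always the same region in every list. At members with a peak, the median highest fold was 10.9 and 12.1 in the KO RNase R- lists, beside 7.60 and 7.38 at other genes of similar length with a peak. In the KO RNase R+ lists the members' medians were 11.1 and 10.1, beside 7.28 and 7.41. The members' peaks in the KO RNase R- lists held a median of 20 and 24 reads at the summit, and the lowest held 8 in each list. Over all peaks of those lists the median was 13 and 14 reads.

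The strongest member was Rpl17, whose protein lines the exit tunnel of the large subunit. Its folds were 48.8 and 61.1 in KO RNase R- and 39.0 and 24.7 in KO RNase R+, with 89 and 132 reads at the RNase R- summits. The peak at chr18:75000634-75001085 lay in the middle of the gene over the snoRNA gene Snord58b. Rps16, a protein of the small subunit's head, followed with folds of 33.0 and 38.4 in the untreated KO lists and of 17.4 and 17.2 in the treated ones, on 60, 75, 36 and 35 reads. Its region, chr7:28350798-28351367, covered both exon and intron, with the untreated summits 436 and 527 bp past the gene start.

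Rps18, which sits where the subunits meet, had 2 regions in all 4 KO lists. The one at chr17:33953844-33954930 had folds of 29.8 and 24.8 in RNase R- and 19.8 and 19.6 in RNase R+, and the one at chr17:33952361-33952644 had folds of 26.0 and 23.7, then 16.1 and 10.6. Rpl17, Rps16 and Rps18 had no WT peak, so no WT fold can be set beside their KO values.

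The 300 bases around the summit are printed for 3 genes with high RNase R- folds at a region called in all 4 KO lists, leaving out stretches with any annotated UTR. They are the GRCm38.p6 reference sequence on the strand of the gene, 5′ to 3′, chosen after the values were seen. They show the reference around the summit and not the fragments that were captured. None of the 12 strongest members had a peak over its gene start in both KO RNase R- lists, so no promoter is shown. Capitals mark runs of 3 or more G.
Rps16, chr7:28350984-28351283, + strand, 110 exonic and 190 intronic bases: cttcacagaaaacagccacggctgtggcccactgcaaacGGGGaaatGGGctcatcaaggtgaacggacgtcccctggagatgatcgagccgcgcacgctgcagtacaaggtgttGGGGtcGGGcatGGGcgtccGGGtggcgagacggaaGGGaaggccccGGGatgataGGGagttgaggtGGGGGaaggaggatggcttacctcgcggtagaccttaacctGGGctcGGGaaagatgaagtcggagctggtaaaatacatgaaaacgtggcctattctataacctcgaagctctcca
Rps18, chr17:33954199-33954498, - strand, 292 bases exonic in at least 1 annotated transcript: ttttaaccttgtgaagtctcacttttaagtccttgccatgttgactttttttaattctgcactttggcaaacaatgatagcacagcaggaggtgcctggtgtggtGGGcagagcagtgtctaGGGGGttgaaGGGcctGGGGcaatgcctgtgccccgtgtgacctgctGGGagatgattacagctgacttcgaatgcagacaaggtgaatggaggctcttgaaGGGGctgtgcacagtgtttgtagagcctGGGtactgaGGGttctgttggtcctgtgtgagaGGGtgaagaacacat
Rps19, chr7:24888556-24888855, + strand, 116 exonic and 184 intronic bases: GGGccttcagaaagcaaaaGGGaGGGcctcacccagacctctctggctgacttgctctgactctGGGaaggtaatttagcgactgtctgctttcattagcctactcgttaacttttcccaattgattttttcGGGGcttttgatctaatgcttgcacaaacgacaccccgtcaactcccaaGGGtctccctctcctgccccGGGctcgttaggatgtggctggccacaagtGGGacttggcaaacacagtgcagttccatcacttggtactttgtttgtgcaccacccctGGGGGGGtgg

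The stretches of Rps16 and Rps18 held more G than C on the gene's strand (106 against 68 and 98 against 54), and Rps19 held 76 G and 84 C. They had 12, 9 and 9 runs of 3 or more G. Over the 56 member regions called in both KO RNase R- lists, the 300 bases at the summit held a median of 7.5 such runs and had more G than C at 48 (85.7%). At the 2422 such regions of other genes of similar length the median was 6 and the share 70.9%. In 1792 consecutive tiles of 300 bases over all members' windows the median was 4 runs and 67.4% had more G than C. Tiles of other genes were not counted. The whole windows already differed, with more G than C at 90.7% of members and at 64.0% of other genes of similar length. Runs were counted on the gene's strand alone, and both figures describe letters of the reference. The GC content of the member regions had a median of 54.2%, beside 51.7% at the other genes' regions. It was 48.0% over the members' windows and 46.5% over those of the other genes.

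Genomic DNA was cut before precipitation with MseI (TTAA), DdeI (CTNAG), AluI (AGCT) and MboI (GATC), so these sites set the ends of the fragments. The members' windows held a median of 18.8 such sites per kb, beside 18.2 in other genes of similar length. The windows of the 46 members with a peak in both KO RNase R- lists held 18.6 per kb, and those of the 30 members with no KO RNase R- peak held 19.3. Regions called in both KO RNase R- lists held fewer sites than the windows, with medians of 15.1 per kb at members and 10.1 at other genes. The fragment under the summit of the member regions had a median length of 124 bp, against 211 bp at the other genes' regions. The part of these sites in where peaks were called was not tested.

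Rpl36 had folds of 20.5 and 26.2 in KO RNase R- and 14.2 and 12.3 in KO RNase R+. This gene of 828 bp had a region in its body with untreated folds of 16.8 and 26.2 and another past its end, overlapping Lonp1, with 20.5 and 16.3. Rps19, mutated in some patients with Diamond-Blackfan anaemia, had folds of 23.9 and 16.7, then 13.7 and 9.59. Rps24, another gene of that disease, had folds of 16.3 and 20.6, then 13.0 and 11.6, with the untreated summits 496 bp past the annotated end of the gene. Rpl31 had folds of 19.0 and 16.9, then 12.1 and 16.9.

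Not all of the 12 strongest had a peak in both RNase R+ lists: Rpl13a, Rpl15 and Rpl18 did not. Rpl13a, which is also known from a complex that silences translation of inflammatory mRNAs, had folds of 14.2 and 26.2 without RNase R over Snord35a and 3.76 in one RNase R+ list. Its region also overlapped the protein_coding gene Gm45713. Rpl15 had folds of 16.0 and 21.8, and 10.3 in one RNase R+ list, at a region that also overlapped the protein_coding gene Nkiras1. Rpl18 had folds of 14.6 and 23.9 and no RNase R+ peak. Its strongest peak lay upstream of the gene start and within the neighbouring gene Sphk2, so it cannot be given to Rpl18 alone.

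Of the other members with peaks in both KO RNase R+ lists, Rpsa, a small-subunit protein once named as a laminin receptor, had untreated folds of 18.7 and 16.2 and treated folds of 12.5 and 9.52. Rpl8, near the catalytic centre of the large subunit, had 16.6 and 16.9, then 12.8 and 10.5. Rpl19 had 15.2 and 17.9, then 9.36 and 8.47. Rpl38 had 14.4 and 17.4, then 8.23 and 13.2. In Rpsa, Rpl8 and Rpl19 both treated values were below both untreated values. At Rpl38 the 8.23 came from a region within the gene, and the other values from a region past its end. How often the treatments separated at other genes was not counted. A lower mean fold with RNase R was found at 86.4% of other genes' regions called in all 4 KO lists.

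Rps6, the substrate of the S6 kinases, had untreated folds of 16.8 and 15.0 and treated folds of 19.1 and 12.7, with summits on exonic bases near its end. Rplp2, an acidic protein of the stalk, had 13.0 and 16.5, then 16.6 and 9.52. Rpl12, at the base of the stalk, had 10.9 and 14.2, then 11.96 and 6.07. For these 3 genes the ranges of the treatments overlapped.

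Rps3, which lines the mRNA entry channel, had 15.2 and 13.6 in RNase R- and 12.5 and 5.29 in RNase R+. Rps2, its neighbour in that channel, had 16.1 and 14.8 in RNase R- at a region it shares with Ndufb10, which was in no RNase R+ list. Its other region had 12.1 and 13.0, then 3.62 and 4.05, the lowest ratio between treatments among the regions called in all 4 KO lists. Rps15a had 3.34 and 10.5, then 5.15 and 5.58, in an intron. At Rps3 and at the second region of Rps2 both RNase R+ values were below both RNase R- values, which was not counted over other genes.

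Rps29 was the member with WT peaks. Its folds were 41.2 and 55.7 in WT RNase R- (60 and 82 reads), 7.60 and 10.02 in KO RNase R-, 13.5 and 9.52 in KO RNase R+, and no peak in WT RNase R+. All 6 summits lay upstream of the gene start, at distances from -288 to -210 bp, over Rn7s1, a gene of 7SL RNA, the RNA of the signal recognition particle. No peak of any list lay in the body of Rps29. Counted over gene bodies alone, 0 members had a peak in either WT list without RNase R, and 37 members were called in KO, beside 12.9% of other genes of similar length.

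Most summits lay within the gene bodies, which also make up most of the window. Few peaks covered the gene start, at members and at other genes of similar length. In the KO RNase R- lists 60 of 76 and 52 of 71 summits at members fell within the gene body (78.9% and 73.2%). Peaks over the start of the gene numbered 3 and 1 (3.95% and 1.41%), beside 2.19% and 2.06% at other genes of similar length. With the body cut into 3 equal parts, the part next to the start held 28.9% and 29.6% of the summits. The middle part held 19.7% and 18.3%, and the last part 30.3% and 25.4%. Each part makes up 23.5% and 23.3% of the window. The median summit was 2224 and 2177 bp past the start. Of the summits, 42.1% and 42.3% lay on bases that are exonic in at least 1 transcript, which make up 32.9% and 32.2% of the windows of the genes concerned. For other genes of similar length the shares were 27.1% and 27.2%, over windows of which 22.7% and 22.5% was exonic. Summits past the gene end made up 17.1% and 18.3%, and the flank behind the end made up 14.8% and 15.0% of the window. Summits before the gene start made up 3.95% and 8.45% of all, and the flank before it is equally long.

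The annotation also gives many starts inside these genes, from short or retained-intron transcripts. Within 1000 bp of any annotated transcript start lay 56.6% and 57.7% of the KO RNase R- summits, and 53.7% of the bases of all members' windows. With 500 bp the shares were 46.1% and 47.9%, and 33.1% of bases. Coverage was low before and at the gene start and higher within the gene. In the KO RNase R- lists a mean of 2.33% of members were covered at the gene start, 11.0% at 300 bp and 12.8% at 2400 bp past it.

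**Figure D3:**
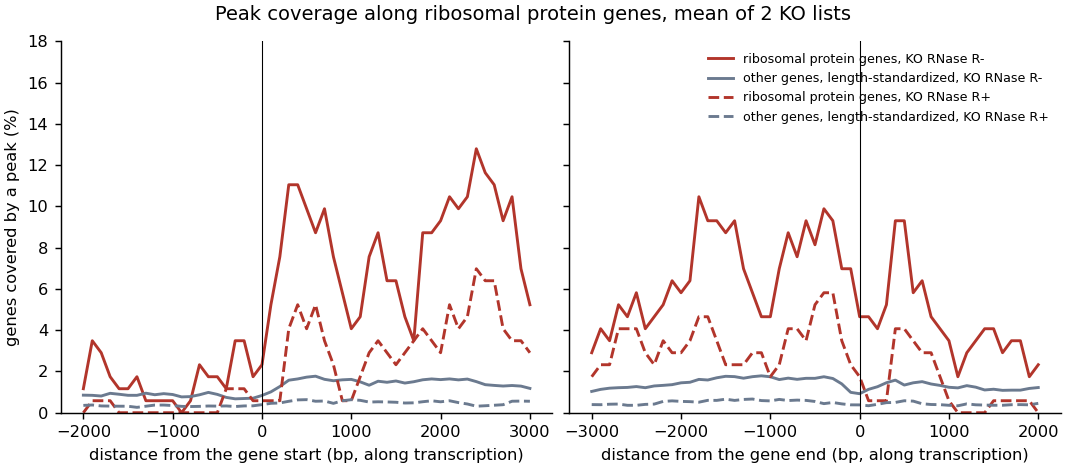
Percent of genes covered by a peak (vertical axis, mean of 2 KO lists) by distance in bp from the gene start (left) or gene end (right) along transcription, for ribosomal protein genes (red) and other genes standardized to their lengths (grey), without RNase R (solid) and with it (dashed). Members were covered at 2.33% at the start and 12.8% at 2400 bp, and the other genes at 0.837% and 1.51%.

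SnoRNAs were hosted by 30 members, which held 58 of them on the same strand. A peak in both KO RNase R- lists was found at 15 of these 30 hosts (50.0%) and at 31 of the 56 other members (55.4%). Among other genes of similar length the shares were 36.9% of 84 hosts and 15.8% of 14296 other genes, but these were longer, with median lengths of 12962 and 9231 bp against 3232 bp for the member hosts and 3399.5 bp for the other members. Standardized to the lengths of the member hosts and of the other members, the shares of all other genes, hosts included, were 10.9% and 10.5%. Of the peaks at members, 7 of 76 and 7 of 71 covered a snoRNA gene in the KO RNase R- lists, so most lay elsewhere. Peaks that also overlapped another protein_coding gene numbered 15 and 11. With these left out, 37 members were called without RNase R and 20 with it, beside 12.2% and 2.50% of other genes of similar length.

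Ribosomal protein mRNAs have many processed copies in the genome, and only uniquely mapped reads were kept, so reads that fit a copy equally well are not in the lists. Of the 294 pseudogenes named after a member, 1 and 2 overlapped a peak in the KO RNase R- lists and 0 in the other 6 lists. A peak in both KO RNase R- lists was found at 34 of the 59 ribosomal proteins' genes with a named pseudogene (57.6%) and at 11 of the 18 without one (61.1%). Their median lengths were 3221 and 4579 bp.

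Recurrence between replicates and overlap with RNase R+ peaks were counted over merged regions. Merged over both KO RNase R- lists, the members had 89 regions, of which 56 (62.9%) were called in both replicates, beside 40.9% of 5931 regions at other genes of similar length. A peak of at least 1 KO RNase R+ list overlapped 36 of the 89 regions (40.4%), beside 17.6% at the other genes. The remaining 53 had no overlapping RNase R+ peak call, which does not show a loss to the enzyme, since many regions were also missed by one RNase R- replicate. Conversely, 37 of the 40 regions of the KO RNase R+ lists (92.5%) overlapped an RNase R- peak, beside 76.9%. The members' peaks were also the stronger ones, as given above, and the part of strength in these shares was not tested.

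Members had 22 regions that were called in all 4 KO lists. The mean fold with RNase R was below that without it at 20 of them, with a median ratio of 0.621 and a range from 0.306 to 1.31. The exceptions by mean fold were Rps6 and the region upstream of Rps29. At other genes of similar length 325 of 376 such regions (86.4%) had the lower mean fold with RNase R, with a median ratio of 0.718, so the members' share was near that of the other genes. With 2 lists a treatment no single region could pass a test, and the fold is relative to each library's own background.

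**Figure D4:**
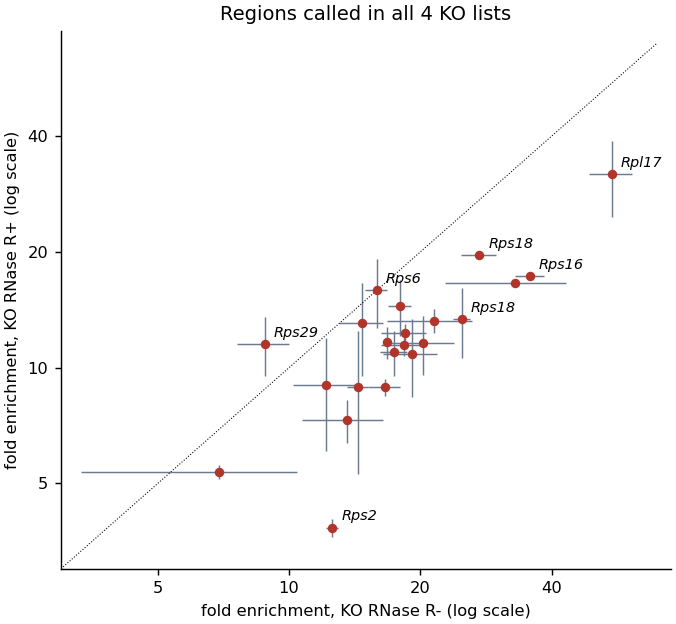
Mean fold enrichment in the 2 KO RNase R- lists (horizontal, log scale) against that in the 2 KO RNase R+ lists (vertical, log scale) for the 22 member regions called in all 4. Lines span the 2 replicates and the dotted line marks equal folds. Of the points, 20 lie below it, with Rps2 lowest (3.62 and 4.05 with RNase R) and Rpl17 at the upper right.

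Ribosomal proteins with other symbols were looked at separately. Rack1, a scaffold on the head of the small subunit, had folds of 32.6 and 39.6 in KO RNase R- and 22.4 and 20.1 in KO RNase R+, with no WT peak. Fau, which encodes Rps30 fused to a protein like ubiquitin, had no peak in any of the 8 lists.

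Further lists of the translation apparatus differed in how often they carried peaks. Among 25 translation factors and other TOP mRNAs, 18 and 21 genes had a peak in the KO RNase R- lists and 0 in the WT lists. Of these 25, 17 (68.0%) were called in KO alone, beside 14.9% of other genes of the members' range of lengths. For the 23 of these 25 within that range, the mean share was 78.3%, beside 25.4% for other genes standardized to those lengths. The strongest were Eif4a2 (60.8 and 69.6), Eif4a1 (66.7 and 52.3), both RNA helicases of cap-dependent initiation, and Eif4b, their cofactor (27.4 and 39.8). With RNase R their folds were 52.2 and 41.3, 25.1 and 17.1, and 24.6 and 14.8.

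Among 54 genes of ribosome biogenesis, 25 and 28 had a KO RNase R- peak and 3 had one in each WT RNase R- list. Of these 54, 16 (29.6%) were called in KO alone, beside 14.9% of other genes of the members' range of lengths. The 40 biogenesis genes within that range had a mean share of 51.2%, beside a standardized 25.2%. In WT RNase R- their mean share was 3.75%, beside a standardized 1.50%. Ncl, which encodes nucleolin, led with 39.5 and 35.9, then 38.5 and 25.4 with RNase R. Utp4 had 16.1 and 12.4, and the helicase gene Ddx56 had 11.9 and 16.4.

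The 78 genes of the mitochondrial ribosome, which makes the proteins encoded by mitochondrial DNA, had a KO RNase R- peak at 17 and 24. They were called at 14 (17.9%), beside 14.9% of other genes of the members' range of lengths. For the 71 mitochondrial ribosome genes within that range the mean share of 22.5% stood beside a standardized 22.0%. With RNase R, 2 and 1 of these 71 had a KO peak, a mean of 2.11% beside 5.75%. The strongest of all 78, Mrpl18 (13.0 and 8.86), Mrps2 (13.6 and 7.49) and Mrps28 (8.55 and 9.49), had no RNase R+ peak. Mrps28, with 121773 bp, is longer than any member and lies outside that range. These shares are counts over lists chosen for function, and the differences between lists were not tested. The called counts of these lists include genes outside that range of lengths, and the called share of other genes was not standardized to the lengths of each list.

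**Figure D5:**
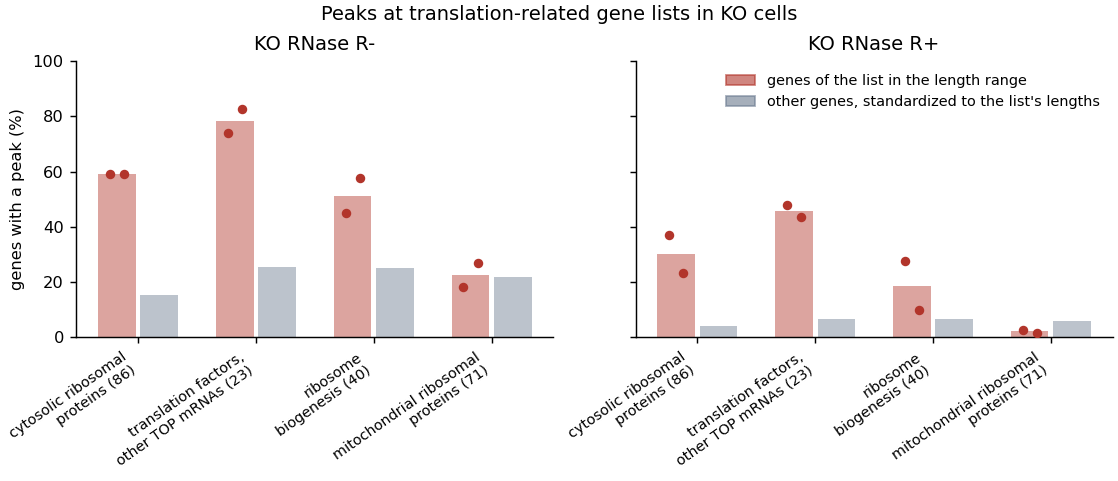
Percent of genes with a peak in KO cells without RNase R (left) and with it (right) for the genes of 4 lists between 374 and 31449 bp, with their number in brackets (red bars, mean; points, the 2 lists), beside other protein_coding genes standardized to the lengths of those genes (grey). The ribosomal proteins and the translation factors stood at 59.3% and 78.3% without RNase R, and the mitochondrial ribosome at 22.5% beside 22.0%.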

How the data were processed

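Per the labels and the study's methods, the authors cut genomic DNA with 4 restriction enzymes, incubated it with RNase R or buffer, precipitated hybrids with S9.6 and sequenced single-strand libraries. Reads were aligned to GRCm38 (mm10) with Bowtie2, duplicates, reads with more than 3 mismatches and reads without a unique position were removed with SAMtools 1.1, and peaks were called in each library with MACS2 at a q-value of 0.001; the control used is not given in the sources used here. Each deposited list of 10 columns gives the position, a fold enrichment (a linear ratio to the expected level), −log10 p and q-values, and an integer score not used here. In one WT RNase R- list (replicate 1) the peak names bear the number of the other replicate; the values of both lists differ, and the labels were followed.

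Members, comparison lists and tests were chosen with earlier results of these data known. Genes and exons came from GENCODE M21; no peak ended past a chromosome of the GRCm38.p6 reference. Presence was counted per gene and list (overlap of 1 bp, flanks of 1000 bp). Shares of other genes were averaged over 5 length classes with the members' weights. For the standardized comparisons, genes outside the members' lengths were left out on both sides, also for the other lists. The called counts of the other lists cover all their genes, including those outside that range. Per gene, the number of peaks was compared by an exact two-sided permutation within RNase R treatment, with Benjamini-Hochberg adjustment. Summit heights were recovered from fold and p as whole reads within a relative tolerance of 0.0001, at 93.0% to 99.9% of peaks; these and the lists' lengths are the only measure of depth in the files. Overlaps, heights and permutations were tested on simulated data. Python 3.11.15, NumPy 2.4.6, pandas 2.3.3, SciPy 1.17.1, pysam 0.24.0 and bedtools 2.31.1 were used.

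Genes named were every member with a WT peak or with a peak in both KO RNase R+ lists, the 12 with the highest mean KO RNase R- fold, Rack1 and Fau, and the 3 strongest of each other list; some genes that this rule picks are not reported here; no sequence on chromosome 18 was printed; others are said to be named after their values were seen, as are Rpl3l and Rps19bp1. Alternatives were other windows and overlaps, stricter folds and q-values, peaks at other genes left out, members without paralogs, other length classes, scaled KO heights, the replicate number as a block, and each list left out.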

Additional observations from a re-analysis of the deposited data

How the results depend on the processing

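The difference between KO and WT kept its direction in all alternatives tried. The number of members called in KO alone without RNase R, 45, was 27 with a fold of at least 10 (beside 3.03% of other genes of similar length) and 28 with KO heights scaled to the read depth of the WT libraries (3.03%; chosen after seeing the data), and ranged from 45 to 50 when a list was left out (50 without either KO list, beside 23.3% and 19.8%). With RNase R, 20 became 9 with a fold of at least 10 (0.682%), and ranged from 20 to 32 when a list was left out, the 32 being without KO replicate 2 (6.34%). The call asks for a peak in every KO list and in no WT list, so leaving a list out can only keep or raise these counts. With the replicate number as a block (KO above the same-numbered WT list in both pairs), 45 and 20 were called, as without it. That outcome was fixed, since Rps29 alone had WT peaks, with 1 peak in each KO and WT RNase R- list. The share of members with a KO RNase R- peak, whose replicates did not differ, was 50.6% over gene bodies, 66.3% with flanks of 5000 bp, 58.1% by summit or without peaks over Rn7s1, 57.6% with at least 50% of the peak in the window, 36.05% with a fold of at least 10 or at WT read depth, 46.5% with −log10 q of at least 10, 51.2% without peaks over other genes, 54.1% at the WT background level and 64.3% without paralogs. In WT RNase R- it was 0% over gene bodies or without Rn7s1 (chosen after seeing the data), 2.91% with flanks of 5000 bp and 1.30% without paralogs; in KO RNase R+ it was 15.7% with a fold of at least 10. The ratio to other genes, 3.91, was 2.55 with flanks of 5000 bp, 9.19 with a fold of at least 10, 5.71 with −log10 q of at least 10, 4.95 at the WT background level, 8.76 at WT read depth and 4.42 by peaks per kb, and 3.63 or 4.25 with 1 list left out. Summits within the promoter distance fell from 57.2% to 47.0% with 500 bp. The lower WT depth limits what an absent WT peak can show for the members called at full depth and not at WT depth.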
